A study of Homo sapiens with 61 samples.

Results

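Kinesins and dyneins are the motor proteins that walk along microtubules, and 65 of their genes were followed across 14 groups of human neurons. The genes were taken by symbol: numbered kinesins (KIF), KIFC1 to KIFC3, the kinesin light chains KLC1 to KLC4, the DYNC1 and DYNC2 subunits of cytoplasmic dynein, the DYNL light chains, and the dynactin subunits DCTN1 to DCTN6. In all, 66 protein-coding genes fitted these names. Of these, 65 passed the filter on low counts in at least 1 of the 2 experiments, out of 22067 genes that did so in the series, and KIF2B passed in neither. By textbook role the 65 were 21 transport kinesins with their light chains, 13 kinesins with mitotic roles, 12 other kinesins (KIF1BP, the kinesin-binding protein, was counted here because its symbol fitted), 13 dynein genes and 6 dynactin genes. Experiment 1 tested 63 of them, without DYNLRB2 and KLC3. Experiment 2 tested 64, without KIF4B, and 62 were tested in both.

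All cells were neurons that the transcription factor NGN2 had made from WTC11, an induced pluripotent stem cell line of human origin and in wide use. Experiment 1 held WT cells and knockouts (KO) of DLK, of LZK or of both, each with a doxycycline cassette for NGN2. DLK (gene MAP3K12) and LZK (gene MAP3K13) are related kinases upstream of JNK, and the labels do not say how many clones each knockout line stands for. In experiment 2 every line expressed the CRISPR interference machinery and a lentiviral guide RNA (gRNA) that was scrambled (Control gRNA) or targeted JUN or ATF2. ATF2 and JUN are transcription factors that JNK phosphorylates. On day 14 of differentiation, as the series design gives it (the extraction protocol gives 10 to 14 days), cells received 5 nM vincristine or the DMSO vehicle for 16 hours. Vincristine binds tubulin and disassembles the microtubules that these motors use as tracks. Each group of experiment 1 held 4 libraries and each group of experiment 2 held 5, except vincristine-treated ATF2 gRNA, which held 4. Untreated means DMSO throughout. The labels do not say that the libraries of a group came from separate differentiations, so p-values measure only the spread between these libraries.

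Conventional kinesin (heavy chains KIF5A, KIF5B and KIF5C with KLC light chains), the kinesin-3 motors such as KIF1A, and the kinesin-2 motors such as KIF3A carry vesicles, mitochondria and other cargo toward microtubule plus ends, which in an axon means away from the cell body. Cytoplasmic dynein 1, built on the heavy chain DYNC1H1 and activated by dynactin, carries cargo and injury signals back. Dynein 2, built on DYNC2H1, works in cilia. Another group of kinesins builds and moves the mitotic spindle and is low in cells that have left the cell cycle.

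The libraries of experiment 1 held 8410729 to 14647819 counts and those of experiment 2 held 38925807 to 88392414. Levels are given in CPM (counts-per-million of the scaled library total). The targeted genes moved with their labels in the single knockouts and the guide lines. Untreated MAP3K12 was at 91.0 ± 2.23 CPM (SD, n = 4) in WT and 26.3 ± 2.48 in DLK KO. MAP3K13 fell from 99.1 ± 1.93 in WT to 31.9 ± 1.96 in LZK KO. ATF2 was at 0.526 ± 0.294 CPM (n = 5) in ATF2 gRNA against 129 ± 18.6 in Control gRNA, and JUN at 2.87 ± 0.447 in JUN gRNA against 88.5 ± 6.97. Levels of both kinases in the double KO are not given here. Neuronal markers were high in both experiments (MAP2 at 2337 CPM in untreated WT). The library names in the counts of experiment 1 call the cells cortical. Among cortical markers, TBR1 was at 0.570 CPM and CUX2 at 52.4 CPM in untreated WT. Among sensory or peripheral neuron markers, POU4F1 was at 435 CPM, PRPH at 2.84 and ISL1 at 1.21. One library stood apart from its group: replicate 4 of vincristine-treated WT differed from the median of the other 3 by a root mean square of 0.493 on the log2 scale over 10476 genes, and the next furthest, replicate 4 of vincristine-treated LZK KO, by 0.318. Values for WT are given with and without it where it matters.

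The promoters shown first are those of DYNC2H1, whose vincristine response is described below, and of KIF15 and KLC1, whose windows hold TGACGTCA. Sequences are RefSeq's for GRCh38.p14, 5′ to 3′ on the strand of the gene and upstream of its annotated start. The table held a window of 300 bases (250 before the start) for 53 of the 65 genes. No window was matched for KLC2, KIFC2, KIF13B, KIF27, KIF19, KLC4, KIF21B, DCTN6, KIF5A, KIFC3, KIF26B and DYNLL2. Capitals mark TGACGTCA, the cyclic AMP response element that ATF2 and JUN dimers can bind, which was looked for on both strands.
DYNC2H1 (chr11:103109176-103109425, + strand): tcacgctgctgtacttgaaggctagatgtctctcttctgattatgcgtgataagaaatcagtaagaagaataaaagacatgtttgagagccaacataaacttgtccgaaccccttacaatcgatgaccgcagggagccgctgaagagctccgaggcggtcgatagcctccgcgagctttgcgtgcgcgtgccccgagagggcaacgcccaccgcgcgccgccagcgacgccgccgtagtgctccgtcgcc
KIF15 (chr3:44761544-44761793, + strand): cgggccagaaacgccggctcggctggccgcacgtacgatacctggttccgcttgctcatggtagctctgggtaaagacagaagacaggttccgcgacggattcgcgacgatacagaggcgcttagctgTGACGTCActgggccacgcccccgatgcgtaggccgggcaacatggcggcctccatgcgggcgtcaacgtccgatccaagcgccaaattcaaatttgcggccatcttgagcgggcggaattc
KLC1 (chr14:103628961-103629210, + strand): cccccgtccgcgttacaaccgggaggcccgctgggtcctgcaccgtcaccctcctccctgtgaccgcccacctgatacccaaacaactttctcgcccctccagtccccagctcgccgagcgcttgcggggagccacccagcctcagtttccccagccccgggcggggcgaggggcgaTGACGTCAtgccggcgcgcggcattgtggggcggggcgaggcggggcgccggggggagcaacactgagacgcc

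TGACGTCA was found in the windows of KIF15 and KLC1, 2 of the 53, against 1.98% of all 27305 RefSeq windows of this length. The AP-1 element TGANTCA, which does not lie within TGACGTCA, was found for 2 of the 53 (DCTN3 and KIF21A), against 7.76% of all windows. Neither element was in the window of DYNC2H1, whose rise with vincristine is described below, nor in those of DYNC2LI1, DCTN2, KIF2A, KIF26A, DYNLL1 and KIF22. A match is a string of letters and not a shown binding site, and its absence speaks only of this window.

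A different element was common in the mitotic kinesin windows, though absent from those of KIF20A, KIF22 and KIF2C. TTTGAA, the core of the cell cycle homology region of genes switched off by the DREAM complex outside the cell cycle, was found on either strand in 10 of the 13 mitotic kinesin windows and in 1 of the other 40, against 15.4% of all windows. In KIF14, KIF18B, KIF20B, KIF4B and KIFC1 it lay after the annotated start. In 5 of the 13 it lay within the last 100 bases before the start, against 4.64% of all windows. These 5 stretches follow with the element in capitals (TTCAAA is the same element on the other strand).
KIF11 (chr10:92593030-92593129, + strand): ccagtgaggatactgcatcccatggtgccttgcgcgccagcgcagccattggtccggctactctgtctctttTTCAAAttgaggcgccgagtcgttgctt
KIF15 (chr3:44761694-44761793, + strand): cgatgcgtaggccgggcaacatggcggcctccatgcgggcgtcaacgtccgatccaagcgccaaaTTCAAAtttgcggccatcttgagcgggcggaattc
KIF18A (chr11:28108157-28108256, - strand): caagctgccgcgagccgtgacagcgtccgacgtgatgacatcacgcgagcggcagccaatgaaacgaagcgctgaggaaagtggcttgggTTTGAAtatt
KIF23 (chr15:69414249-69414348, + strand): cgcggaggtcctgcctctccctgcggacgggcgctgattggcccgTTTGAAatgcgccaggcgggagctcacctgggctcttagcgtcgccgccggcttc
KIF4A (chrX:70290004-70290103, + strand): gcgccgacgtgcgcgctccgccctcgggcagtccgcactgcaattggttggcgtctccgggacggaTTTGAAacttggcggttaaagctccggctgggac

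In untreated cells 3 transport kinesins stood first of the 65 when compared per kilobase of the exon length that the files give for each gene. The ranking depends on these lengths, which were 36852 bases for DYNC1H1, 12357 for KIF1A and 9215 for KIF5C. Whether they match the transcripts made in these cells was not tested. In WT, KIF5C, a neuronal heavy chain of conventional kinesin, stood first at 296 ± 3.3 CPM per kb (SD, n = 4). The synaptic vesicle precursor motor KIF1A followed at 121 ± 6.0 and KIF5A, a second neuronal heavy chain, at 107 ± 3.6. These 3 kept the same places in Control gRNA, at 284 ± 14, 175 ± 4.9 and 107 ± 3.2 CPM per kb (n = 5). The dynactin subunit DCTN1, which binds dynein and the microtubule, was at 91.8 in WT and 75.0 in Control gRNA. The light chain DYNLL1, shared by dynein and many other proteins, was at 81.4 and 99.2, and its SD of 12 in WT spans the gap to DCTN1. DYNC1I2 was at 74.1 and 62.6, KIF3C at 72.0 and 73.8, and the dynein heavy chain DYNC1H1 at 70.9 and 56.1. In WT KIF21A (69.4) and KIF1B (62.8) closed the first 10, and in Control gRNA DYNLL2 (76.9), DYNLRB1 (68.8) and KIF21B (65.4) stood among them. The mitotic kinesins lay at the bottom: 11 of the 13 were at or below 0.468 CPM per kb in untreated WT. The exceptions were KIF22 (5.41) and KIF20B (1.50).

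Vincristine changed motor genes in both control lines, WT and Control gRNA, in both directions. In WT 15 of 63 passed the test (edgeR's quasi-likelihood test, adjusted over all genes, under 0.05), 8 higher and 7 lower, and 30.2% of all genes were called. In Control gRNA 34 of 64 passed, 17 higher and 17 lower, where 35.3% of all genes were called. The median log2 fold change over the members was 0.01 in WT and -0.01 in Control gRNA, against 0.00 and 0.03 over all genes. Of the 62 genes tested in both experiments 11 were called in both lines, all 11 in the same direction. The 6 that rose in both were DYNC2H1, DYNC2LI1, DCTN2, KIF2A, DYNC1LI2 and KIF17, and the 5 that fell in both were KIF26B, KIF26A, DYNLL1, KIF22 and KIF13A. Without WT replicate 4 the WT count was 22, of which 11 were among the 15. The other members called in WT were KIF15, DYNC1I1 (0.27 ± 0.08), KIF1C (-0.38 ± 0.13) and KIFC3 (-0.36 ± 0.13), and the last 2 were not called without that library. In bulk RNA fewer cells of a type and less RNA per cell cannot be told apart. Markers of cell types moved with the treatment as well. The 10 neuron markers summed to 15430 to 16094 CPM in untreated and 11219 to 11868 in treated Control gRNA (7 called lower and 1 higher), and to 15157 to 16054 and 12785 to 14229 in WT (4 lower and 2 higher). The 4 sensory or peripheral markers summed to 483 to 504 CPM untreated and 198 to 221 treated in Control gRNA and to 427 to 460 and 111 to 218 in WT, with POU4F1 the 1 marker called in each line. The 4 neural progenitor markers summed to 1308 to 1397 and 2426 to 2522 CPM in Control gRNA (2 called higher) and to 728 to 770 and 914 to 1940 in WT (1 called higher). The part of these markers in the motor gene changes was not tested. The heat map of fold changes by line shows the motor genes in all lines.

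**Figure D1:**
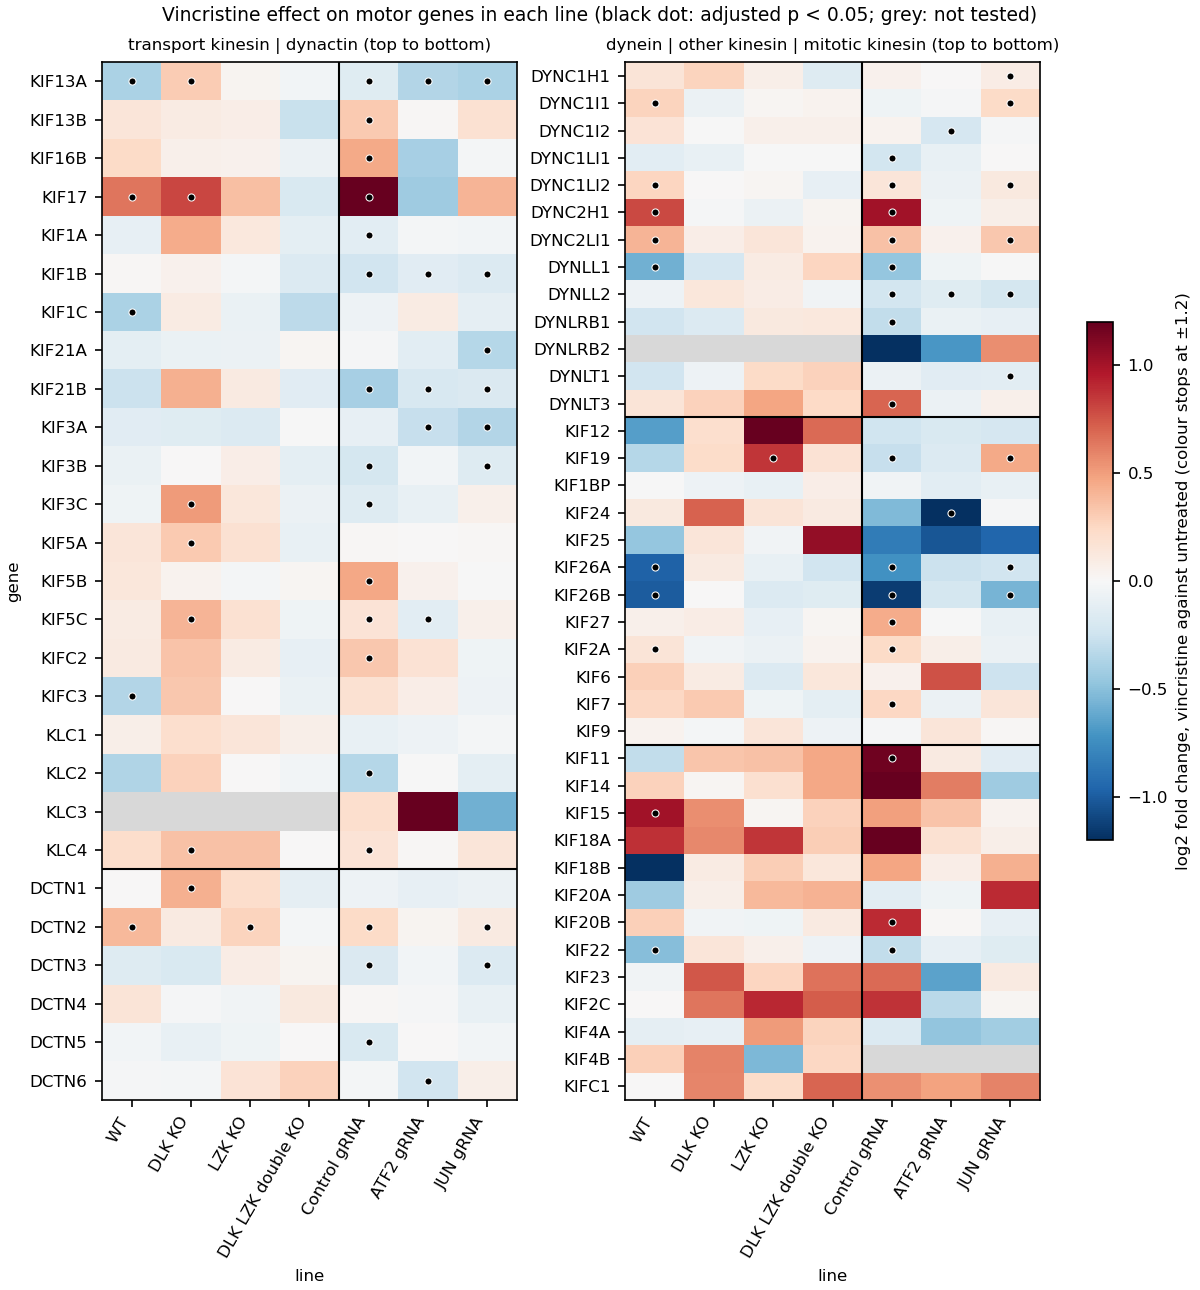
Log2 fold change with vincristine for each gene (rows, by class) in each of 7 lines (columns; the vertical line parts the experiments), with a black dot where adjusted p was under 0.05 and grey where the gene was not tested. Dots are densest in the Control gRNA column (34 of 64) and absent from the DLK LZK double KO column (0 of 63).

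Both named subunits of dynein 2 rose in both lines. DYNC2H1 (chr11:103109431-103479863), the heavy chain that pulls cargo down the cilium, was at 129, 131, 136 and 136 CPM in the untreated WT libraries and at 203, 214, 233 and 273 after vincristine. In Control gRNA it was at 41.5, 41.7, 45.6, 46.5 and 60.9 untreated and at 87.5, 94.0, 95.5, 95.8 and 102 after vincristine. In both lines every treated library lay above every untreated one. The rise was 1.73-fold in WT (log2 0.79 ± 0.08 SE, adjusted p = 2.7e-10) and 2.01-fold in Control gRNA (1.01 ± 0.12, adjusted p = 1.8e-07). The other genes within 5 Mb of it had a median log2 fold change of 0.31 in WT (25 genes) and 0.51 in Control gRNA (29 genes), and whether this stretch moved together was not tested. In all 5 lines with a knockout or a guide against ATF2 or JUN the treated and untreated libraries of DYNC2H1 overlapped: 98.9 to 105 untreated and 95.8 to 104 treated in DLK KO, 79.5 to 111 and 79.5 to 96.7 in LZK KO, 59.5 to 67.5 and 63.1 to 68.6 in the double KO, 40.6 to 61.2 and 47.4 to 55.6 in ATF2 gRNA, 48.8 to 60.5 and 47.6 to 73.4 in JUN gRNA. The difference in response was called in each of the 5, from -0.76 in the double KO (adjusted p = 3.8e-06) to -1.05 in ATF2 gRNA (adjusted p = 6.7e-05).

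DYNC2LI1 (chr2:43774039-43810010), the light intermediate chain of the same motor, rose less. Its WT libraries were at 14.7, 15.4, 16.8 and 17.2 CPM untreated and 19.4, 19.7, 20.0 and 26.4 treated, with no overlap. Its Control gRNA libraries were at 10.1, 10.2, 12.6, 12.7 and 13.4 untreated and 13.2, 15.4, 15.4, 15.5 and 15.8 treated, overlapping in 1 library. The log2 fold changes were 0.41 ± 0.13 (adjusted p = 0.016) and 0.35 ± 0.10 (adjusted p = 0.0030). The highest WT value was from replicate 4, and without it the WT change was 0.29 (adjusted p = 0.072), no longer called. JUN gRNA also showed a rise, of 0.33 ± 0.10 (adjusted p = 0.013), which was lost when either of 2 libraries was left out. Of 10 other cilium genes (intraflagellar transport proteins and dynein 2 partners) 5 rose and 0 fell in Control gRNA, 50% called against 35.3% of all genes. In WT 2 rose and 1 fell, 30% called against 30.2% of all genes, a share at the background.

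DCTN2 (chr12:57530102-57547331), dynamitin, the subunit that joins the arm of dynactin to its rod, rose in both lines. It was at 116, 119, 123 and 125 CPM in untreated WT and 141, 156, 161 and 172 after vincristine, and at 230, 238, 239, 248 and 253 in untreated Control gRNA and 279, 282, 284, 284 and 286 after it. The groups did not overlap in either line, and the changes were 0.39 ± 0.06 (adjusted p = 1.1e-05) and 0.23 ± 0.04 (adjusted p = 1.2e-06). DCTN2 also rose in LZK KO (0.27 ± 0.06, adjusted p = 0.012) and in JUN gRNA (0.11 ± 0.04, adjusted p = 0.029), calls lost under 3 and 6 of the alternatives tried. In the double KO its libraries ran from 80.1 to 90.4 untreated and from 75.1 to 89.1 treated, and the difference from WT was called (-0.40 ± 0.09, adjusted p = 0.0014). Among the other dynactin subunits DCTN3 and DCTN5 fell in Control gRNA, by 0.17 and 0.18 on the log2 scale, and none was called in WT.

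KIF2A (chr5:62306162-62537249), which removes tubulin from microtubule ends and limits axon branching, changed least of the group. WT libraries were at 197, 199, 202 and 202 CPM untreated and 213, 215, 216 and 248 treated. Control gRNA libraries were at 150, 156, 157, 164 and 181 untreated and 181, 185, 185, 192 and 203 treated. The groups were apart in WT and touched in Control gRNA, where the highest untreated library lay just above the lowest treated one. The changes were 0.16 ± 0.06 (adjusted p = 0.030) and 0.23 ± 0.05 (adjusted p = 0.0010). The WT call was lost under 6 of 13 alternatives, and without replicate 4 the change was 0.10 (adjusted p = 0.18).

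The largest falls called in both lines were in the kinesin-11 pair, KIF26A and KIF26B, which bind microtubules without the ATPase cycle of other kinesins. KIF26B (chr1:245154985-245709431) was at 145, 146, 148 and 152 CPM in untreated WT and 39.6, 78.7, 86.0 and 91.7 after vincristine. It was at 83.2, 84.3, 89.2, 94.0 and 103 in untreated Control gRNA and 36.4, 40.0, 41.4, 41.7 and 46.4 after it. Levels thus fell to 50.2% of untreated in WT (log2 -1.0 ± 0.14, adjusted p = 3.6e-06) and 45.4% in Control gRNA (-1.14 ± 0.06, adjusted p = 1.1e-19), with no overlap. The lowest WT value was from replicate 4, and without it the WT change was -0.79. In JUN gRNA KIF26B also fell, by 0.55 ± 0.06 on the log2 scale, from 79.8 to 89.2 CPM across untreated libraries to 52.8 to 68.6 across treated ones. The fall in JUN gRNA was smaller than in Control gRNA, a difference of 0.58 ± 0.09 (adjusted p = 1.9e-06). In ATF2 gRNA the untreated libraries ran from 65.0 to 72.1 and the treated ones from 56.5 to 64.3, a change that was not called, and the difference from Control gRNA was 0.93 ± 0.09 (adjusted p = 3.6e-11). In the knockouts the groups overlapped in DLK KO and LZK KO, and the double KO ran from 265 to 291 untreated and 230 to 261 treated, not called. The differences from WT were 1.00, 0.83 and 0.85 for DLK KO, LZK KO and the double KO, all called.

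KIF26A (chr14:104138723-104180894) was at 81.9, 84.4, 89.0 and 106 CPM in untreated WT and 21.6, 42.9, 59.3 and 59.8 after vincristine. In Control gRNA it was at 117, 132, 146, 153 and 155 untreated and 76.6, 81.5, 81.6, 86.0 and 97.7 treated. Both lines showed no overlap, and the falls were -0.97 ± 0.20 (adjusted p = 4.2e-04) and -0.73 ± 0.08 (adjusted p = 1.4e-08). Without WT replicate 4, again the lowest, the WT change was -0.75. The fall was smaller with the ATF2 guide (difference 0.47 ± 0.12, adjusted p = 0.0036) and with the JUN guide (0.50 ± 0.11, adjusted p = 0.0020), and in JUN gRNA a fall of 0.23 was still called (adjusted p = 0.044, lost under 7 alternatives). In DLK KO the difference was 1.08 ± 0.28 (adjusted p = 0.0067), and in LZK KO it was 0.89 ± 0.28 (adjusted p = 0.037), a call that was lost under 11 of the alternatives tried. In the double KO it was 0.75 ± 0.28 (adjusted p = 0.065), not called. The KIF26A libraries there ran from 52.8 to 61.4 CPM untreated and from 45.0 to 51.1 treated. They did not overlap, though the change with vincristine was not called.

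DYNLL1 (chr12:120469850-120498493) was at 192, 245, 254 and 272 CPM in untreated WT and 128, 129, 165 and 225 treated, so that 1 treated library, replicate 4, lay within the untreated range. In Control gRNA it was at 279, 287, 290, 294 and 316 untreated and 206, 212, 213, 213 and 216 treated, far apart. The falls were -0.57 ± 0.15 (adjusted p = 0.0048) and -0.47 ± 0.04 (adjusted p = 1.6e-14), and without WT replicate 4 the WT fall was -0.78. In ATF2 gRNA (339 to 378 untreated, 331 to 365 treated) and JUN gRNA (289 to 312 and 281 to 316) the groups overlapped, and both differences from Control gRNA were called (0.42 and 0.46, each ± 0.05). DYNLL1 has near-identical processed copies elsewhere in the genome, so its counts are uncertain to the extent that reads were shared. Its paralogue DYNLL2 had log2 fold changes of -0.14 in ATF2 gRNA, -0.22 in Control gRNA and -0.21 in JUN gRNA, all called, and was not called in WT.

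KIF22 (chr16:29790719-29805385), a chromosome-binding kinesin, fell in both lines. It was at 21.8, 23.2, 23.4 and 25.0 CPM in untreated WT and 14.7, 15.0, 16.3 and 19.8 treated, and at 39.4, 40.5, 40.6, 41.2 and 41.7 in untreated Control gRNA and 29.9, 32.5, 33.1, 33.5 and 37.0 treated. No library overlapped, and the changes were -0.51 ± 0.10 (adjusted p = 1.5e-04) and -0.30 ± 0.06 (adjusted p = 1.1e-04). In DLK KO (21.3 to 23.1 untreated, 22.7 to 26.1 treated) and LZK KO (19.6 to 25.3 and 21.8 to 25.0) it was not called, and the differences from WT were 0.65 ± 0.14 (adjusted p = 9.7e-04) and 0.57 ± 0.14 (adjusted p = 0.0058). The plot of levels by library shows the 8 genes side by side.

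**Figure D2:**
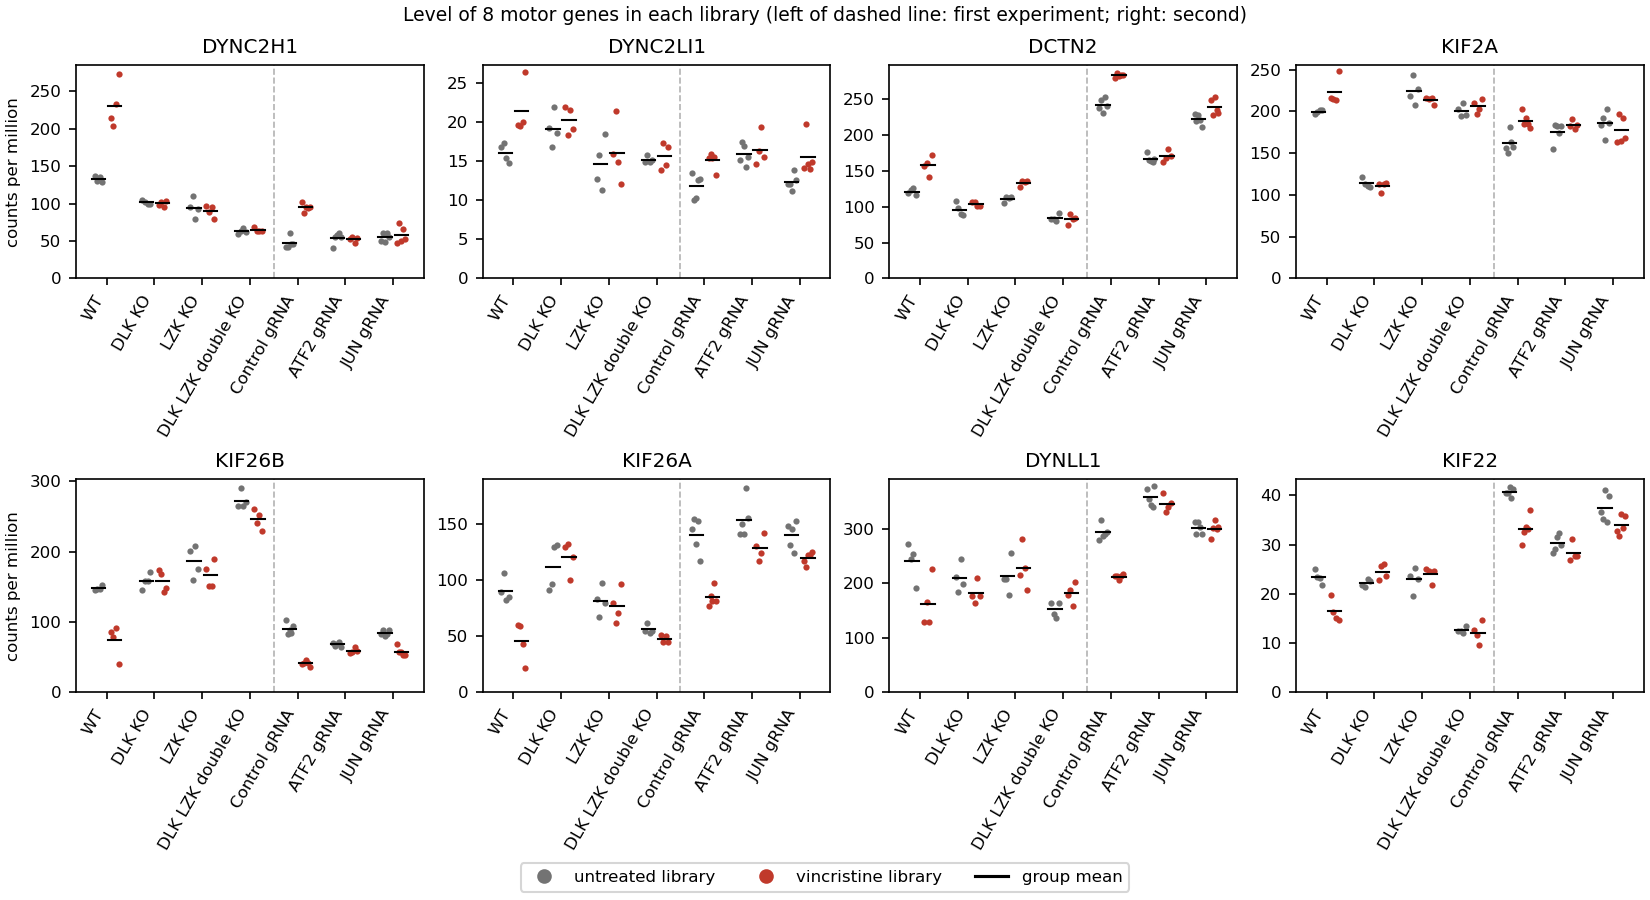
Level in CPM (axis from 0) of the 8 genes described in full, with 1 point per library, grey untreated and red treated with vincristine, and a black bar at the group mean. DYNC2H1 rises in WT (129 to 136 against 203 to 273) and Control gRNA (41.5 to 60.9 against 87.5 to 102) and overlaps in the other 5 lines, while KIF26B falls in WT, Control gRNA and JUN gRNA.

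Of 8 core transport subunits 3 were called in Control gRNA and 0 in WT. In Control gRNA KIF5C rose by 0.17 ± 0.03 and KIF5B, the widely expressed heavy chain, by 0.46 ± 0.08, from 181 to 242 CPM across untreated libraries to 263 to 293 across treated ones. KIF1A fell by 0.13 ± 0.04 there. KIF5A, KIF3A, KLC1, DYNC1H1 and DCTN1 were not called in Control gRNA, with log2 fold changes of 0.01, -0.10, -0.09, 0.05 and -0.06. In WT the changes ran from -0.13 for KIF3A to 0.15 for DYNC1H1. Leaving out WT replicate 4 brought 4 of the 8 past the threshold there: KIF5A (0.25), KIF5C (0.18), DYNC1H1 (0.28) and KIF3A (-0.19). Other transport genes that fell in Control gRNA were KIF21B (-0.39), KLC2 (-0.34), KIF1B (-0.23), KIF3B (-0.21) and KIF3C (-0.15), and those that rose were KIF17 (1.25, at 0.476 to 0.661 CPM untreated), KIF16B (0.46), KIFC2 (0.32), KIF13B (0.31) and KLC4 (0.17). KIF13A, a kinesin-3 of endosomes, fell by 0.38 ± 0.08 in WT and 0.15 ± 0.06 in Control gRNA, and the second call was lost when any of 9 of the 10 libraries was left out. The small dynein light chain gene DYNLT3 rose by 0.70 ± 0.10 in Control gRNA, from 13.1 to 15.1 CPM to 22.0 to 23.9, and was not called in WT.

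Adaptors and regulators, the proteins that join motors to cargo, were counted as a group of 40. In WT 9 rose and 4 fell, 32.5% called against 30.2% of all genes. In Control gRNA 13 rose and 11 fell, 60% called against 35.3% of all genes.

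In lines lacking DLK, LZK or both, few motor genes were called in the main fit. DLK KO had 7 of 63 called, all higher, where 6.53% of all genes were called. LZK KO had 2 of 63, both higher, where 3.88% of all genes were called. The double KO had 0 of 63, where 0.0658% of all genes (12 genes) were called. There edgeR gave 9 of the 63 members an unadjusted p under 0.05, and 1096 of all 18235 genes. DESeq2 called 0 members and 15 of all 18235 genes in the double KO. A fit of only the double KO groups called 9 of 63, where it called 5.36% of all genes. The same kind of fit called 17 in DLK KO (17.3% of all genes) and 0 in LZK KO (1.47% of all genes). Over all 18235 genes it called 3460 in WT and 3152 in DLK KO, against 5498 and 1190 in the main fit. How far DLK KO fell short of WT thus depended on the fit. Of the 15 genes called in WT, 1 was called with the same sign in DLK KO (KIF17), 1 in LZK KO (DCTN2) and 0 in the double KO. KIF13A was called with the opposite sign in DLK KO, where it rose from 34.5, 36.0, 36.2 and 40.3 CPM to 43.0, 43.3, 47.6 and 47.7.

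The difference in response itself was called for 13 members in DLK KO (9 toward higher, 4 toward lower, and 19.4% of all genes), 9 in LZK KO (6 and 3, and 12.4% of all genes) and 10 in the double KO (5 and 5, and 19.4% of all genes). These 3 comparisons share the WT libraries. Of the 15 genes called in WT the difference was called for 9, 8 and 8, each time toward a smaller response. These 15 were chosen by their response in the same WT libraries, which favours that direction, so the direction is no separate result. Without WT replicate 4 the double KO count was 19. In LZK KO the 3 on the lower side were the mitotic motor KIF15 (-0.98 ± 0.23, adjusted p = 0.0041), DYNC2H1 (-0.86) and the dynein light intermediate chain DYNC1LI2 (-0.23). In DLK KO DYNC1I1 (-0.34, adjusted p = 0.044) and DCTN2 (-0.27, adjusted p = 0.031) followed DYNC2H1 on the lower side, the first lost under 13 and the second under 9 of the alternatives. KIF13A (0.68) stood beside KIF26A and KIF26B on the higher side there. In the double KO the lowest were DYNC2H1, KIF15 (-0.73) and KIF13B (-0.41), the last 2 lost under 7 and 12 alternatives. DYNLL1 (0.83 ± 0.22) and DYNLT1 (0.51 ± 0.18, lost under 13) stood beside KIF26B on the higher side. KIF19, which trims the tips of cilia, rose from 1.20, 2.04, 2.05 and 2.59 CPM to 2.76, 3.44, 3.68 and 4.60 in LZK KO (0.86 ± 0.25, adjusted p = 0.039, lost under 8 alternatives). Its difference from WT was 1.20 ± 0.31 (adjusted p = 0.0081).

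Motor genes that rose in DLK KO were mostly transport motors: KIF17 (0.80), KIF3C (0.51), KIF5C (0.41), KLC4 (0.35), KIF5A (0.31) and KIF13A, with DCTN1 (0.43). KIF5C went from 927, 961, 982 and 990 CPM untreated to 1236, 1261, 1294 and 1332 treated, with an adjusted p of 3.3e-05, and KIF3C from 297, 302, 342 and 365 to 421, 467, 478 and 494. Neither group overlapped. The treated KIF5C libraries still lay below the 2706 to 2773 CPM of untreated WT. KIF5C and KIF5A kept their calls in every alternative, and KIF17, KIF3C, DCTN1, KIF13A and KLC4 lost theirs under 8, 6, 4, 6 and 9 of 13.

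In experiment 2 the guide against ATF2 left 9 of 64 motor genes responding, all lower, where 6.1% of all genes were called. The guide against JUN left 17 (6 higher, 11 lower), where 15.9% of all genes were called. Of the 34 genes called in Control gRNA, 4 kept a call of the same sign with the ATF2 guide and 11 with the JUN guide, and 1 with the opposite sign in each. The difference in response was called for 16 members with the ATF2 guide (8 and 8, and 20.6% of all genes) and 19 with the JUN guide (11 and 8, and 15.8% of all genes), which share the Control gRNA libraries. Among the 34 it was called for 15 and 17, each time toward a smaller response. These 34 were chosen by their response in the same Control gRNA libraries, which favours that direction.

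Of the 9 that fell in ATF2 gRNA, KIF24, a kinesin of the centriole at low level, fell furthest (-1.61 ± 0.44, adjusted p = 0.016, lost under 3 alternatives). The other 8 were transport, dynein and dynactin genes with small changes, led by KIF13A (-0.35 ± 0.07, from 25.5, 28.9, 29.3, 29.4 and 31.1 CPM to 19.3, 22.5, 22.8 and 26.0, overlapping in 1 library), KIF3A (-0.28 ± 0.07) and DCTN6 (-0.23 ± 0.06, lost under 6 alternatives). Genes whose response differed most from Control gRNA were DYNC2H1, the early endosome motor KIF16B (-0.85 ± 0.24) and DYNLT3 (-0.77 ± 0.15) on the lower side, and KIF26B, KIF26A and DYNLL1 on the higher side. In JUN gRNA the falls were led by KIF26B, KIF13A (-0.38 ± 0.06) and KIF3A (-0.35 ± 0.06), and the rises by KIF19 (0.46 ± 0.08), DYNC2LI1 and DYNC1I1 (0.23 ± 0.07). KIF19 rose in JUN gRNA from 33.4, 38.4, 41.4, 42.7 and 42.8 CPM to 48.9, 52.7, 52.9, 59.3 and 59.5, while in Control gRNA it fell from 31.6, 34.0, 34.0, 34.7 and 35.6 to 24.8, 25.6, 28.0, 30.1 and 32.0. The difference between those responses was 0.73 ± 0.11 (adjusted p = 1.1e-06). The mitotic motors at low level, KIF11 (-1.30 ± 0.45) and KIF20B (-0.99 ± 0.34), were also called for this difference, with adjusted p of 0.041 and 0.044, and the calls were lost under 13 and 15 of 25 alternatives.

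The lines also differed before treatment. Untreated ATF2 gRNA against untreated Control gRNA had 36 of 64 motor genes called, where 39.9% of all genes were called. Of these 30 were lower and 6 higher, and 20.2% of all genes were called lower. The members' median was -0.19, against 0.02 over all genes. By class, 13 of 21 transport kinesins (median -0.40), 8 of 13 dynein genes and all 6 dynactin genes (median -0.31) were lower, and 1 transport kinesin (KIF5B) and 3 dynein genes were higher. Of the 12 mitotic kinesins tested 1 was lower, KIF22. Over all the alternatives tried, 27 to 30 members were called lower.

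KIF13A had the largest fall, at 25.5, 28.9, 29.3, 29.4 and 31.1 CPM against 55.6, 65.7, 66.2, 69.9 and 72.2 (-1.19 ± 0.06, adjusted p = 3.4e-21). KIFC3, a minus-end kinesin, was at 13.3, 13.9, 15.5, 15.8 and 17.1 against 28.8, 30.2, 32.0, 34.2 and 34.4 (-1.08 ± 0.08, adjusted p = 2.3e-16). KIF21B, which pauses growing microtubules, was at 436 to 497 against 769 to 817 (-0.76 ± 0.05). In each of these the libraries were apart. The core subunits were lower as well: DCTN1 (460, 486, 489, 496 and 514 CPM against 766, 776, 782, 793 and 798, -0.68 ± 0.03), KIF5A (440 to 465 against 648 to 701, -0.57 ± 0.03), KLC1 (-0.50), KIF5C (-0.43), KIF3A (-0.40), KIF1A (-0.38) and DYNC1H1 (-0.28). DYNC1I1, the intermediate chain found mainly in neurons, went the other way, at 47.0, 50.0, 51.2, 53.1 and 62.2 CPM against 25.8, 26.9, 27.4, 27.6 and 27.6 (0.96 ± 0.07, adjusted p = 2.9e-16). DYNC2LI1 (0.43) and the cilium kinesin KIF27 (0.51) were also higher.

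Adaptors and regulators had 22 of 40 lower and 7 higher in the same comparison. Of 10 neuron markers 4 were higher and 5 lower (median -0.17), with summed levels of 13824 to 14268 CPM in ATF2 gRNA and 15430 to 16094 CPM in Control gRNA. Of the pluripotent cell markers that could be tested 2 of 3 were higher, and the 5 on that list summed to 33.8 to 40.2 CPM in ATF2 gRNA and 9.58 to 13.5 CPM in Control gRNA. The sensory or peripheral markers summed to 218 to 238 against 483 to 504 CPM, the neural progenitor markers to 735 to 813 against 1308 to 1397, and the 3 glutamatergic markers to 586 to 671 against 415 to 465.5. The part of these in the lower motor genes was not tested.

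Untreated JUN gRNA differed less from Control gRNA. It had 16 of 64 called, 4 higher and 12 lower, where 11.2% of all genes were called. The falls ran from -0.21 for KIF13A, with DCTN3 and DYNLRB1 at -0.17 each, to -0.10 for KIF5C. KIF12 (1.00), KIF5B (0.28), KIF19 (0.23) and KIF2A (0.20) were higher, that of KIF19 lost under 10 alternatives. Both guides were compared with the same Control gRNA libraries.

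**Figure D3:**
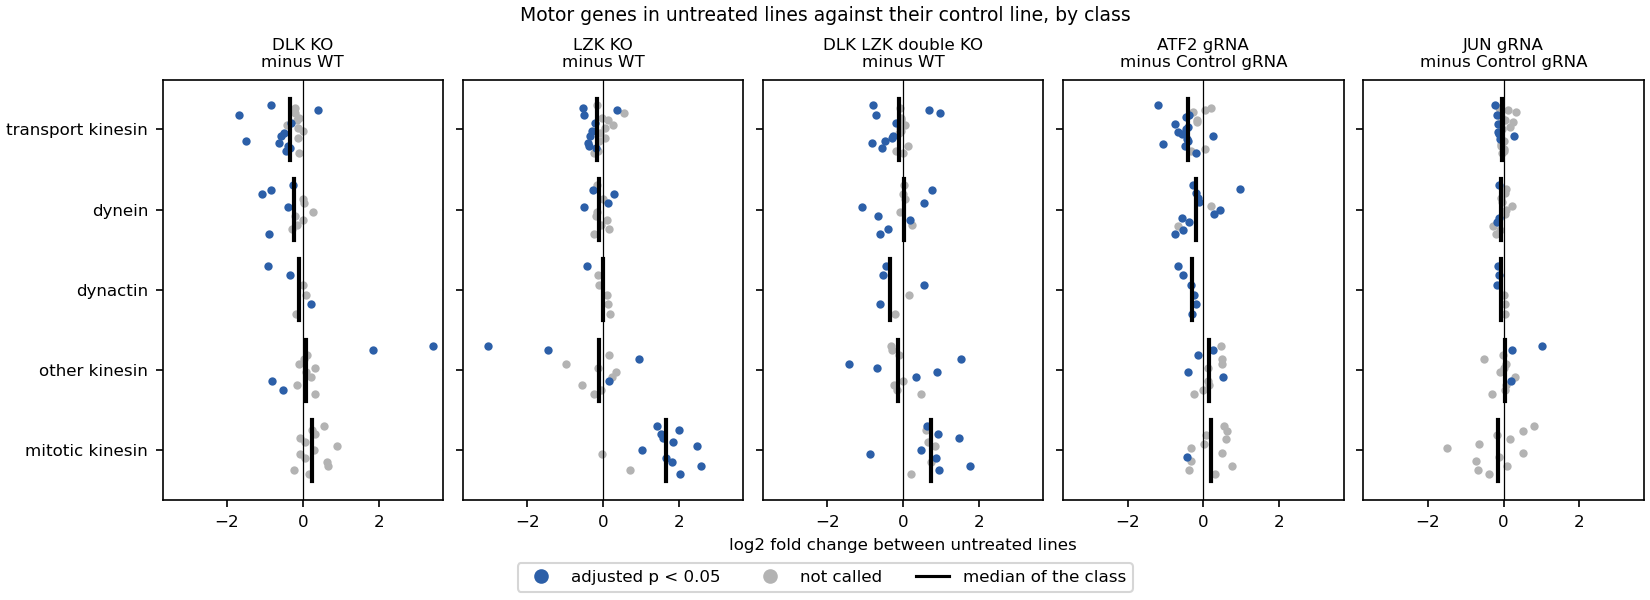
Log2 fold change of each gene between an untreated line and its untreated control line (x axis), by class (rows), in 5 comparisons, blue where adjusted p was under 0.05, grey where not, with a black bar at the median of the class. Transport kinesins and dynactin lie left of 0 in ATF2 gRNA (medians -0.40 and -0.31), and mitotic kinesins lie right of 0 in LZK KO (median 1.65).

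Untreated DLK KO had 23 of 63 motor genes called against untreated WT, where 34.5% of all genes were called. Of these 19 were lower and 4 higher, and 17.9% of all genes were called lower. The largest falls were in the 2 transport kinesins that stood highest per kilobase in untreated WT. KIF1A was at 390, 451, 496 and 514 CPM against 1425, 1437, 1555 and 1564 (-1.69 ± 0.18, adjusted p = 1.9e-08), and KIF5C at 927, 961, 982 and 990 against 2706, 2713, 2723 and 2773 (-1.50 ± 0.06, adjusted p = 2.5e-20). The dynein intermediate chain DYNC1I2 was at 154, 163, 164 and 178 against 321, 336, 367 and 367 (-1.08 ± 0.08). All 3 lie on chromosome 2, at chr2:240713764-240820308, chr2:148875250-149026759 and chr2:171687409-171748420.

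The genes around them were lower too. Within 5 Mb the median log2 fold change of other genes was -1.0 around KIF1A (46 genes), -0.70 around KIF5C (25 genes) and -0.94 around DYNC1I2 (58 genes), and around KIF2A on chromosome 5, itself at -0.81, it was -0.80 (31 genes). DNA copy number was not measured here, and its part in these values was not tested. KIF1A and KIF5C lay 0.70 and 0.80 below their neighbours. These 4 were the only members of the 63 with a neighbour median beyond 0.5 in either direction in DLK KO. The other 15 lower genes lay among neighbours near 0: DCTN1 (463, 489, 529 and 558 CPM against 950, 951, 965 and 967, -0.91 ± 0.11), DYNLT3 (-0.90), DYNC1I1 (-0.85), KIF13A (-0.83) and KIF5A (429, 451, 455 and 455 against 643, 667, 673 and 699, -0.58 ± 0.07) among them. Adaptors and regulators had 17 of 40 lower and 6 higher. On the higher side were KIF12 (3.43 ± 0.41, from 0.0932, 0.211, 0.287 and 0.695 CPM in WT to 2.77, 3.54, 3.69 and 3.87), KIF19 (1.86 ± 0.16) and KIF16B (0.40 ± 0.10). KIF12 exceeded the cutoff of the filter on low counts (0.971 CPM) in 8 of 32 libraries. Those of untreated DLK KO were among them and those of untreated WT were not, so its difference is not independent of the filter.

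Cell type markers differed in the same comparison. In untreated DLK KO the neural progenitor markers summed to 196 to 261 CPM against 728 to 770 in WT (2 of 4 called lower and 1 higher). The sensory or peripheral markers summed to 221 to 266 against 427 to 460, with 1 marker called lower and 3 called higher. Of the 3 glutamatergic markers 2 were higher and 1 lower (381 to 408 against 389 to 436 CPM), and of the 10 neuron markers 2 were higher and 3 lower. Both pluripotent cell markers that could be tested were higher, and the 5 on that list summed to 10.3 to 14.3 against 2.81 to 3.35 CPM. The part of these in the lower motor genes was not tested.

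The double KO had 34 of 63 called, 16 higher and 18 lower, where 45.7% of all genes were called. DYNC2H1 (-1.08 ± 0.08), KIF22 (-0.89 ± 0.10) and DCTN5 (-0.62 ± 0.05) were again among neighbours that were lower, with medians of -1.0 (25 genes), -1.08 (129 genes) and -0.96 (84 genes). KIFC2 (-0.81), KIF13A (-0.78) and KIF1A (-0.71) were lower among neighbours near 0. KIF1A and KIF5C were thus lower in both lines without DLK, by 0.71 and 0.49 on the log2 scale in the double KO, where their neighbours were not (859, 901, 927 and 968 CPM for KIF1A). Both comparisons use the same WT libraries. Lower levels were not particular to lines without DLK: KIF1A and KIF5C were also called lower in untreated ATF2 gRNA and JUN gRNA, against Control gRNA. A difference in KIF1A was called in untreated LZK KO as well. DYNC1I1 was lower in DLK KO and higher in the double KO (75.7, 78.0, 79.3 and 81.0 CPM against 43.6, 45.4, 47.1 and 48.8 in WT, 0.76 ± 0.08). DYNC2H1 thus started from a lower level in the double KO, 63.1 CPM against 133 in WT, when its vincristine response was compared. In the untreated double KO the neuron markers summed to 19342 to 19555 CPM (6 of 10 higher and 2 lower), the neural progenitor markers to 104 to 112, the sensory or peripheral markers to 365 to 389 and the pluripotent cell markers to 52.9 to 59.1. Their part in the motor gene differences was not tested.

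**Figure D4:**
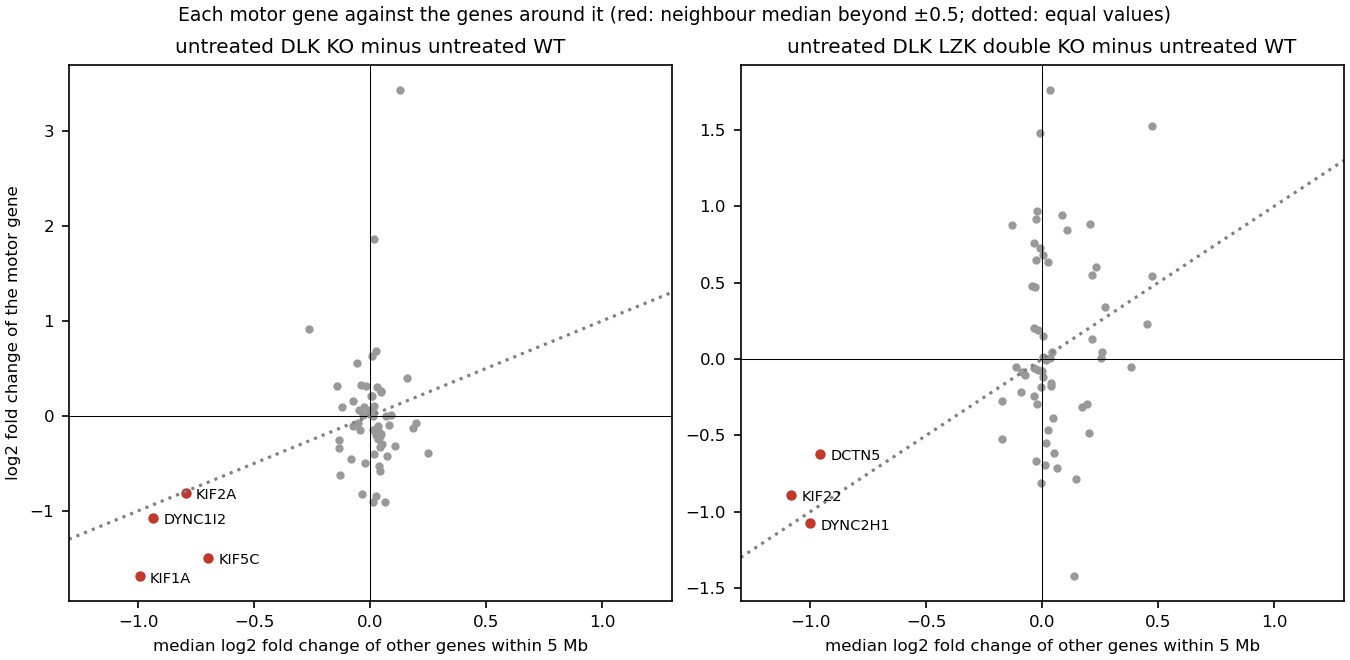
Log2 fold change of each motor gene (y axis) against the median of the other genes within 5 Mb of it (x axis) in untreated DLK KO (left) and double KO (right), each against untreated WT, with genes in red and named where the neighbour median lies beyond 0.5. DYNC1I2 and KIF2A lie near the dotted line of equal values, with KIF1A and KIF5C below it, and DYNC2H1, KIF22 and DCTN5 mark the stretches in the double KO.

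The mitotic kinesins stood out in LZK KO. Untreated LZK KO had 29 of 63 motor genes called against untreated WT, 16 higher and 13 lower, where 33.9% of all genes were called and 17.1% called higher. Of the 13 mitotic kinesins 11 were higher, with a median of 1.65 against 0.01 over all genes, and among the other 50 genes 5 were higher and 13 lower. KIF18B passed the filter in experiment 1 only through vincristine-treated LZK KO, and without it 10 of 12 were higher, with a median of 1.62. KIF4A, which condenses chromosomes and shortens spindle midzone microtubules, was at 0.397, 0.559, 0.574 and 0.773 CPM in WT and 2.71, 3.85, 3.98 and 3.98 in LZK KO (2.60 ± 0.28, adjusted p = 1.9e-09). KIF20A, needed for cytokinesis, was at 0.211, 0.287, 0.596 and 0.652 against 1.92, 2.31, 2.35 and 2.96 (2.47 ± 0.37). The libraries were apart for both, and the levels remained a few CPM at most. On the lower side in LZK KO were KIF12, KIF19 (-1.44 ± 0.22, from 4.57 to 6.18 CPM in WT to 1.20 to 2.59) and KIF13B (-0.52 ± 0.10). KIF12 was at 0 in 3 of 4 LZK KO libraries and below the filter cutoff of 0.971 CPM in untreated WT, a call lost under 4 alternatives.

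The others were KIFC1 (2.04), KIF14 (2.01), KIF18B (1.85), KIF2C (1.82), KIF23 (1.65), KIF18A (1.58), KIF15 (1.54), KIF11 (1.44) and KIF20B (1.02). They cover spindle pole separation (KIF11 and KIF15), chromosome alignment (KIF18A, KIF18B and KIF2C), spindle focusing (KIFC1) and cytokinesis (KIF14, KIF20B and KIF23). KIF22 and KIF4B were not called. KIF4B is an intronless copy of KIF4A, so reads of one can be given to the other. Summed over the class, mitotic kinesins were at 71.9 to 84.4 CPM in untreated LZK KO and 42.9 to 44.7 in WT, and without KIF22 at 49.2 to 61.3 and 19.7 to 21.2. The 15 proliferating cell markers moved alongside: all 15 were higher in LZK KO (median 2.23), and their summed level was 118 to 128 CPM against 33.2 to 37.9 in WT. Both pluripotent cell markers that could be tested were higher too (median 2.01, 13.2 to 18.8 against 2.81 to 3.35 CPM summed over the list of 5). Of the 4 neural progenitor markers 2 were higher and 2 lower (463 to 619 against 728 to 770 CPM), and 3 of the 4 sensory or peripheral markers were lower (131 to 163 against 427 to 460 CPM). In the double KO 7 mitotic kinesins were higher and 1 lower (KIF22), led by KIF4A (1.76) and KIF18A (1.48), beside the centriole kinesin KIF24 (1.53), with 9 markers higher and 1 lower. In DLK KO 0 of 13 mitotic kinesins were called, and 5 of 15 markers were higher. How much of the rise in mitotic kinesins belongs to a few dividing cells was not tested, nor was the part of the other markers.

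**Figure D5:**
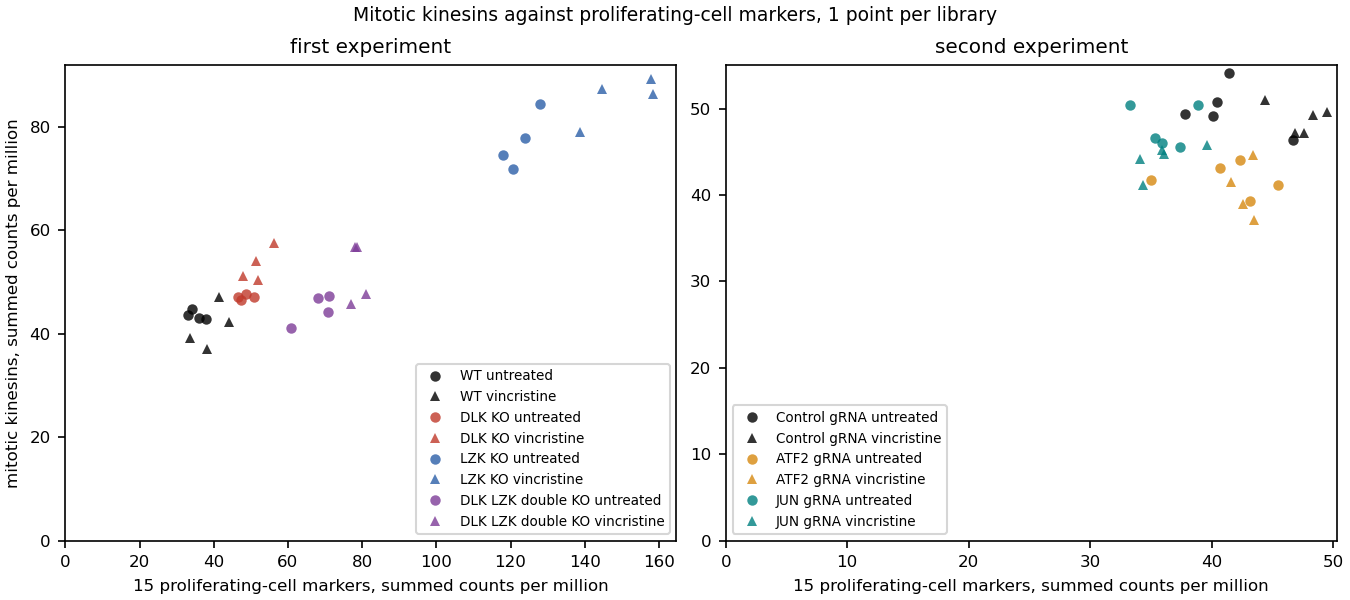
Summed level of the mitotic kinesins (y axis) against that of the 15 proliferating cell markers (x axis), both in CPM from 0, with 1 point per library, circles untreated and triangles treated. The LZK KO libraries lie apart from the other lines on both axes (71.9 to 89.3 CPM for the kinesins), and no experiment 2 group stands apart on the marker axis.

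In WT the mitotic kinesins called for vincristine were KIF15 and KIF22, of 13 tested, where 30.2% of all genes were called. In Control gRNA, where KIF4B was not tested, they were KIF11, KIF20B and KIF22, and 35.3% of all genes were called. The whole class summed to 42.9 to 44.7 CPM untreated and 37.0 to 47.1 treated in WT. In Control gRNA it summed to 46.4 to 54.2 and 47.2 to 51.0, so both lines overlapped. Without KIF22, which fell, the class summed to 19.7 to 21.2 CPM untreated and 22.0 to 32.5 treated in WT, the highest from replicate 4. In Control gRNA it then summed to 5.93 to 12.4 and 14.1 to 17.3. The sums without KIF22 were also higher without overlap in DLK KO and the double KO, and overlapped in LZK KO, ATF2 gRNA and JUN gRNA. With KIF22 the double KO overlapped too (41.1 to 47.3 untreated, 45.7 to 56.9 treated). KIF15, a spindle kinesin that also acts in axons, rose in WT from 2.05, 2.18, 2.68 and 2.98 CPM to 4.35, 4.46, 4.86 and 6.15 (1.00 ± 0.18, adjusted p = 3.0e-05), with no overlap. In untreated LZK KO KIF15 was already at 6.11 to 8.30 CPM and stayed at 6.29 to 8.32 after treatment. In Control gRNA its libraries ran from 0.926 to 1.98 untreated and from 1.83 to 2.36 treated, not called. KIF11 (from 0.344 to 1.35 CPM to 1.33 to 2.25) and KIF20B (0.89 ± 0.24) rose in Control gRNA, where 4 of the 15 markers also rose. KIF2C, KIF4A, KIF4B, KIF14, KIF18A, KIF18B, KIF20A, KIF23 and KIFC1 were not called in WT or in Control gRNA. Of the 2 genes with TGACGTCA in their promoter window, KIF15 was called in WT and KLC1 in neither line.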

How the data were processed

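The deposited tables hold raw counts of reads per gene, 1 table for each experiment, in whole numbers (58440 gene identifiers). Per the submitters' processing notes the tools were cutadapt 3.4, STAR and featureCounts (Subread 2.0.1) on GRCh38. The strand setting of the counting is not given in the sources used here, so overlapping antisense genes cannot be told apart. DYNLL1, DYNC1I2 and DYNLT3 have processed copies that can share reads. Symbols came from GENCODE 29.

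Each experiment was fitted separately over all its genes (18235 and 20759 after filterByExpr by group) with edgeR 4.0.16 (quasi-likelihood test, TMM factors, R 4.3.3), 1 mean per group, Benjamini-Hochberg adjustment over all genes of a comparison, called under 0.05. The script was tested on simulated data. Errors are SE for fold changes and SD for levels. CPM use TMM factors, and CPM per kb the deposited gene lengths. The fitted contrasts were vincristine within each line, the difference of that effect from WT or Control gRNA, and untreated lines against untreated WT or Control gRNA.

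Values in every library are given for up to 4 genes that rose and 4 that fell, called in WT and Control gRNA with 1 sign, at a mean of at least 1 CPM, and ranked by the smaller fold change. Elsewhere up to 3 genes on each side, the 10 highest levels, the mitotic kinesins and 8 core subunits are named by rule. Further genes named (such as KIF21B, KLC2 and DYNLT3) were chosen after their values were seen. Members, lists, motifs and the window of 5 Mb were chosen with earlier results of these data known. Alternatives were DESeq2 1.42.0, its size factors in edgeR, no filter, a replicate block, a fit of the 2 or 4 groups of a contrast alone, and each library left out in turn. The main fit did not pair samples by replicate number, which only the replicate block took into account. Correlations between same-numbered samples are given at the end.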

Additional observations from a re-analysis of the deposited data

Results flagged for a closer look

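The test of the difference in vincristine response was passed by 10 members in the double KO, 13 in DLK KO and 9 in LZK KO, each against WT, and by 19 in JUN gRNA and 16 in ATF2 gRNA, each against Control gRNA. The log2 differences for the 8 genes given by library follow, for those that passed. These 8 were chosen by their response in WT and Control gRNA, whose libraries the differences share, so a smaller response elsewhere was favoured. DYNC2H1 differed by -0.76 in the double KO, -0.81 in DLK KO, -0.86 in LZK KO, -0.93 in JUN gRNA and -1.05 in ATF2 gRNA. DCTN2 differed by -0.27 in DLK KO, -0.40 in the double KO and -0.19 in ATF2 gRNA, and KIF2A by -0.30 in JUN gRNA. KIF26B differed by 1.00, 0.83 and 0.85 in DLK KO, LZK KO and the double KO, and by 0.58 in JUN gRNA and 0.93 in ATF2 gRNA. KIF26A differed by 1.08 in DLK KO, 0.89 in LZK KO, 0.50 in JUN gRNA and 0.47 in ATF2 gRNA. DYNLL1 differed by 0.67 in LZK KO, 0.83 in the double KO, 0.46 in JUN gRNA and 0.42 in ATF2 gRNA. KIF22 differed by 0.65, 0.57 and 0.44 in DLK KO, LZK KO and the double KO.

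Among these 8 genes a single library lay far from the rest of its group in 13 of 112 Dixon's tests, 1 per gene and group. Chance gives about 1 in 20 for independent tests, and these tests share libraries between genes. For DYNC2H1 the libraries were vincristine-treated double KO replicate 1 (68.6 CPM), untreated Control gRNA replicate 3 (60.9) and untreated ATF2 gRNA replicate 1 (40.6). For DYNC2LI1 they were vincristine-treated WT replicate 4 (26.4), Control gRNA replicate 5 (13.2) and JUN gRNA replicate 2 (19.7). For DCTN2 they were LZK KO replicate 1, untreated (105.4) and treated (127). For KIF2A they were vincristine-treated WT replicate 4 (248), DLK KO replicate 2 (102) and LZK KO replicate 4 (207.5). The remaining ones were KIF26B in vincristine-treated JUN gRNA replicate 1 (68.6) and KIF22 in vincristine-treated LZK KO replicate 3 (21.8).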

How the results depend on the processing

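No member's change called with all libraries, or under an alternative, had the opposite sign in the other fit. Changes that were not called could change sign, as without vincristine-treated WT replicate 4 for KIF1A (-0.10 to 0.13), KIF3C (-0.06 to 0.13) and KIF14 (0.27 to -0.05) in WT. With only the groups compared in the fit, the vincristine count was 9 in the double KO, 17 in DLK KO and 0 in LZK KO, and the count of differences was 8 in DLK KO and 5 in LZK KO. In LZK KO the vincristine count was 4 by DESeq2 and 1 with the replicate block. Without a filter the DLK KO difference count was 8. Leaving out 1 library at a time gave 12 to 22 in WT (22 without vincristine-treated replicate 4), 2 to 5 in DLK KO and 0 to 3 in LZK KO for vincristine. It gave 8 to 15 for the DLK KO differences and 6 to 19 for those of the double KO, with 19 without vincristine-treated WT replicate 4 and 6 without untreated WT replicate 3. The cause was not tested. The other counts stayed within 1.5 times their value. Same-numbered samples did not deviate together throughout, with correlations of -0.50 to 0.37 in experiment 1 (5 of 16 over 0.1) and -0.02 to 0.34 in experiment 2 (7 of 14 over 0.1), and the replicate block left the WT count at 15 and moved the DLK KO count from 7 to 5 and that of Control gRNA from 34 to 33. Depth limits experiment 1, where 9 of the 13 mitotic kinesins tested had a mean below 1 CPM in untreated WT.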
